A study of Mus musculus with 61 samples.

Results

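The RNA sequencing data were examined for 10 genes of the neuronal cytoskeleton, out of 46078 genes in the count table. They are 3 intermediate filament genes (Nefl, Nefm and Ina), a β-tubulin gene (Tubb3), 2 stathmin genes (Stmn2 and Stmn3), 3 genes of microtubule-associated proteins (Dcx, Map1b and Mapt) and a transgelin gene (Tagln3). All 10 were found by their symbols and all 10 were among the 24004 genes tested. Nefm and Tagln3 were selected on their measured counts, having been seen to rise in these data, and the others by name. The values of both in comparisons of cells with and without Ngn3, or of companions in Ngn3 cells, are therefore a description, without a test. The other 8 genes were tested throughout.

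The libraries came from mouse pancreatic ductal organoids, epithelial cultures grown from the pancreatic ducts of C57BL/6 mice. Organoids were infected with doxycycline-inducible lentiviruses carrying GFP-Ngn3, LSSOrange-Pdx1 and tdTomato-MafA together with a Tet-On 3G transactivator driven by the PGK promoter, so that the sorted colours show which vectors a cell expressed. After 8 days of doxycycline, pools of 50 cells of one colour combination were sorted and sequenced. Cells without Ngn3 carried Pdx1, MafA or both, cells with Ngn3 carried the same companions, and each of these 6 combinations was taken from 2 kinds of culture, one given unmutated Ngn3 (WT) and the other given Ngn3 in which 6 serines had been replaced by alanine (6SA). Cells without Ngn3 thus came from the same infected cultures and also received doxycycline. Replicates 1 and 2 of each condition were organoids at passage 2 and replicate 3, where present, was at passage 5. Pdx1 cells of both cultures and MafA cells of WT cultures had no replicate 3. Ngn3-Pdx1 cells of both passages were thus compared with Pdx1 cells at passage 2 only. The labels call the replicates biological but do not say whether they came from separate animals, so p-values measure the spread between these samples.

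In neurons, neurofilament subunits and α-internexin form the intermediate filaments of axons, and β3-tubulin, doublecortin, tau and MAP1B are components or binding partners of their microtubules. Stathmin proteins bind tubulin dimers and promote the disassembly of microtubules. Pancreatic endocrine cells, which arise from precursors that express Ngn3, share many gene products with neurons, among them the proneural factors of the Neurogenin and NeuroD families.

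Proneural factors such as Ngn3 bind E-boxes, DNA motifs of the form CANNTG. The 250 bases before the transcription start were available from RefSeq (GRCm38.p6) for 6 of the 10 genes, and the 3 windows that lie outside the annotated gene are shown because they show how the letters of this motif are placed beside genes tested in the comparisons of Ngn3. Capitals mark each CANNTG match, which reads as a match on both strands.
Stmn3 (chr2:181314501-181314750, minus strand): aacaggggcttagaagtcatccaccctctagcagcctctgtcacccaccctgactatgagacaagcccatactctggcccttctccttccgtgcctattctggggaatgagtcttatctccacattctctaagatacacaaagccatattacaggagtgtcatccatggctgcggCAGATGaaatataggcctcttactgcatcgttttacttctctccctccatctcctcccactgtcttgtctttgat
Map1b (chr13:99516603-99516852, minus strand): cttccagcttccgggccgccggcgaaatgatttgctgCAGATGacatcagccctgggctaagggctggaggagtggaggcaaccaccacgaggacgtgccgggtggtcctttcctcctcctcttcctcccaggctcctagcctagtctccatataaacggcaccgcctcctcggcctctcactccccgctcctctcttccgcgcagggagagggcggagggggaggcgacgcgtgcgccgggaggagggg
Ina (chr19:47014431-47014680, plus strand): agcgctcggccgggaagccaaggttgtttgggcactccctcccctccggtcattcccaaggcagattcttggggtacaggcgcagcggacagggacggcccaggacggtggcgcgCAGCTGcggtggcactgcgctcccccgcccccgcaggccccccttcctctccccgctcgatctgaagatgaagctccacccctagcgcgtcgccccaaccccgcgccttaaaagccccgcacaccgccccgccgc
The match starts 75 bases before the start of Stmn3, 213 bases before that of Map1b and 135 bases before that of Ina. The windows of Tubb3, Dcx and Tagln3 held no CANNTG match. Of 32851 listed promoters, 66.2% held at least 1 match in a window of this length, 14.4% held CAGATG and 13.0% held CAGCTG, so these matches are a description of the letters only.

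After 3 of 61 libraries had been left out for fewer than 1000000 gene counts and technical repeats summed, 32 samples remained, 17 with Ngn3 and 15 without, with 2 or 3 samples in each of the 12 conditions. Replicate 3 of the 6SA cells with all 3 factors was lost in this way, which left 2 samples there. Gene counts ranged from 2579583 to 19461008 per sample (median 8490758.5), so that 3 counts corresponded to between 0.136 and 1.01 CPM (counts per 1000000 gene counts, scaled by the trimmed mean of M-values). Neurog3, the gene of the sorted factor, was at most 0.787 CPM in the 15 samples without Ngn3 and between 7.87 and 329 CPM in the 17 samples with it, with no overlap. Pdx1 was 9.84 to 191 CPM in samples sorted for it and 3.21 to 30.6 CPM in the others, and Mafa was 0 to 12.7 CPM in samples sorted for it and at most 0.116 CPM in the others, so the ranges of both overlapped. The summed level of 7 duct markers was 10238 to 56788 CPM without Ngn3 and 1388 to 16495 CPM with it. Of the 7, 4 were lower at an adjusted p below 0.05 (edgeR), where 10.5% of all genes tested were lower.

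The genes were low or absent without Ngn3, except Map1b, which was abundant in those cells as well. Over all 3 companion backgrounds and both cultures together, all 8 genes tested were higher with Ngn3 at an adjusted p below 0.05 (edgeR quasi-likelihood test, Benjamini-Hochberg adjustment over 24004 genes). In the same comparison 11.1% of all genes tested were higher. The median log2 fold change of the 8 genes was 4.53, against 0.07 over all genes tested. In a pool of sorted cells, more cells expressing a gene and more RNA in each of them cannot be told apart.

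**Figure D1:**
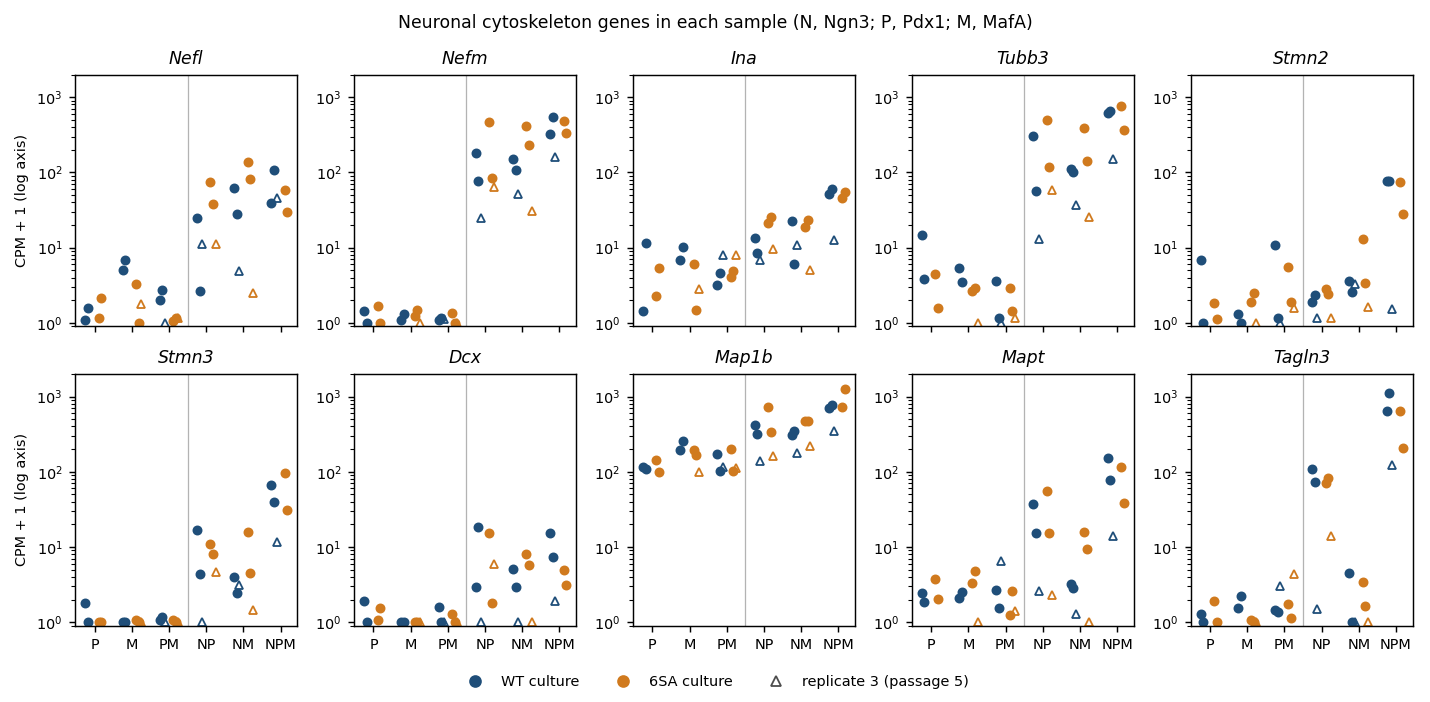
CPM + 1 on a log axis for each of the 32 samples, by combination of factors (P, Pdx1; M, MafA; N, Ngn3), with WT cultures in blue, 6SA cultures in orange and replicate 3 as open triangles. Nefm separates the samples with Ngn3 (24.1 CPM or more) from those without (0.672 CPM or less), whereas Tagln3 stays at 3.55 CPM or less in Ngn3-MafA cells.

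Nefm, which encodes the medium neurofilament subunit, gave the widest separation. Without Ngn3 its lowest, median and highest values were 0, 0.12 and 0.672 CPM, and the counts behind them were 12 or fewer. In Ngn3-Pdx1 cells it was at 181, 76.2 and 24.1 CPM in WT replicates 1 to 3 and at 470, 83.7 and 63.5 CPM in the 6SA replicates. Every sample with Ngn3 was above every sample without it, in each background as well as overall. In Ngn3-MafA cells the WT values were 150, 106 and 50.2 CPM and the 6SA values 412, 233 and 29.3 CPM. With all 3 factors they were 326, 539 and 159 CPM in WT and 487 and 333 CPM in 6SA. The fitted difference over all backgrounds was 9.76 on the log2 scale (SE 0.60).

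Nefl, the light subunit that neurofilaments assemble around, rose by less and started higher. It was 0 to 5.86 CPM without Ngn3, and the 2 highest of these values, 4.07 and 5.86 CPM, were the WT cells with MafA alone. With Ngn3-Pdx1 it was 24.1, 1.69 and 10.2 CPM in WT and 74.4, 37.2 and 10.3 CPM in 6SA. With Ngn3-MafA it was 60.5, 27.0 and 3.93 CPM in WT and 135, 80.1 and 1.53 CPM in 6SA, so that replicate 3 of both lay within the range of MafA cells. With all 3 factors the 5 values, 28.3 to 106 CPM, lay above every sample without Ngn3. The log2 difference was 5.82 (SE 0.66, adjusted p = 1.84e-07, edgeR).
In the GENCODE annotation of GRCm38, from which all gene positions given here are taken, Nefl and Nefm overlap on chromosome 14 (68083863 to 68089095, plus strand, and 68082590 to 68124846, minus strand) and share 1108 bases of annotated exon. The library kit does not mark strand and the counting setting is not given in the sources used here, so reads in that stretch cannot be assigned to one of them with certainty.

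Ina, the gene of α-internexin, gave a smaller fold change than Nefl. It was 0.451 to 10.6 CPM without Ngn3 (median 3.90 CPM, n = 15) and 3.97 to 60.0 CPM with it. Ranges overlapped with Pdx1 and with MafA, and separated with both, where the lowest Ngn3 sample was at 11.4 CPM and the highest sample without Ngn3 at 7 CPM. In cells with all 3 factors it was 50.7, 60.0 and 11.4 CPM in WT and 44.0 and 54.1 CPM in 6SA. The log2 difference over all backgrounds was 2.21 (SE 0.40, adjusted p = 1.56e-04, edgeR). Ina (chr19:47014698-47025327, plus strand) shares 456 bases of exon with Nt5c2 on the other strand.

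Tubb3 (chr8:123411424-123422015, plus strand), the β-tubulin isotype used as a neuronal marker, was at 0 to 13.5 CPM without Ngn3 and at 12.1 to 762 CPM with it. In Ngn3-Pdx1 cells the WT values were 302, 55.3 and 12.1 CPM and the 6SA values 501, 115 and 58.1 CPM. In Ngn3-MafA cells they were 110, 101 and 36.1 CPM in WT and 388, 142 and 24.8 CPM in 6SA. The groups overlapped only by WT Ngn3-Pdx1 replicate 3, which at 12.1 CPM lay below 1 Pdx1 sample at 13.5 CPM. With all 3 factors Tubb3 was 611, 649 and 148 CPM in WT and 762 and 369 CPM in 6SA, against 2.60 CPM or less with Pdx1 and MafA. The log2 difference over all backgrounds was 6.71 (SE 0.65, adjusted p = 1.27e-08, edgeR).

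Of the 2 stathmin genes, Stmn3 rose in each of the 3 backgrounds, and in the main model Stmn2 passed the test only with both companions. With replicate number as a block, Stmn2 also passed with MafA (log2 difference 3.70, adjusted p = 0.0251, edgeR). Stmn3 (chr2:181306459-181314500, minus strand) had no count in 10 of 15 samples without Ngn3 and was at most 0.811 CPM in the others. With Ngn3-Pdx1 it was 15.8, 3.37 and 0 CPM in WT and 9.88, 7.09 and 3.66 CPM in 6SA, and with Ngn3-MafA 2.98, 1.43 and 2.12 CPM in WT and 14.6, 3.53 and 0.458 CPM in 6SA. With all 3 factors it reached 65.0, 39.1 and 10.6 CPM in WT and 94.1 and 29.7 CPM in 6SA, each above every sample without Ngn3. Its log2 difference over all backgrounds was 7.76 (SE 0.78, adjusted p = 4.71e-08, edgeR).
Stmn2 (chr3:8509360-8561606, plus strand), which encodes a stathmin of growing axons also known as SCG10, was 26.8 to 75.6 CPM in 4 of the 5 samples with all 3 factors. The exception was WT replicate 3 at 0.532 CPM. In the 12 samples with Ngn3 and a single companion it was 0.159 to 12.2 CPM, and in the samples without Ngn3 it was 0 to 9.88 CPM, so that these ranges overlapped. The log2 difference over all backgrounds was 2.26 (SE 0.70, adjusted p = 0.0199, edgeR), and it was 1.86 with an adjusted p of 0.320 when all samples of replicate 2 were left out.

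Map1b (chr13:99421446-99516540, minus strand), the gene of the large microtubule-associated protein 1B, was the 1 member abundant without Ngn3, at 97.8 to 255 CPM. With Ngn3-Pdx1 it was 414, 321 and 140 CPM in WT and 716, 333 and 159 CPM in 6SA. With Ngn3-MafA it was 310, 350 and 176 CPM in WT and 472, 472 and 221 CPM in 6SA. In both of these replicate 3 lay in the range of cells without Ngn3. In cells with all 3 factors it was 696, 772 and 348 CPM in WT and 730 and 1273 CPM in 6SA, against 101 to 200 CPM with Pdx1 and MafA alone. Its log2 difference over all backgrounds was 1.65, the smallest of the 8 genes tested, with the smallest standard error (SE 0.22, adjusted p = 2.19e-06, edgeR).
Mapt (chr11:104231390-104332090, plus strand), the gene of tau, was 0 to 5.42 CPM without Ngn3. It was 36.5, 14.5 and 1.64 CPM in WT and 54.2, 14.3 and 1.27 CPM in 6SA with Ngn3-Pdx1, but 2.26, 1.83 and 0.302 CPM in WT and 15.0, 8.51 and 0 CPM in 6SA with Ngn3-MafA. It was highest with all 3 factors, at 150, 76.7 and 13.2 CPM in WT and 113 and 37.6 CPM in 6SA. Only in that last background were the ranges with and without Ngn3 apart. The log2 difference over all backgrounds was 3.55 (SE 0.63, adjusted p = 1.05e-04, edgeR).
Dcx (chrX:143855842-143933311, minus strand), the gene of doublecortin, which is used as a marker of migrating young neurons, stayed low throughout. It was 0 to 0.901 CPM without Ngn3 and 0 to 17.5 CPM with it, and 3 of the 17 samples with Ngn3, all replicate 3, had no count. All 5 MafA samples had 0 counts, and against 3 counts in each of them the mean of the 6 Ngn3-MafA samples, 2.96 CPM, was at least 5.5-fold higher. The log2 difference over all backgrounds was 5.51 (SE 1.03, adjusted p = 2.87e-04, edgeR).

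Tagln3 (chr16:45711230-45724608, minus strand), a calponin-related gene of neurons also known as NP25, stood at different levels with different companions. With Ngn3-MafA it was 3.55, 0 and 0 CPM in WT and 2.38, 0.623 and 0 CPM in 6SA, where samples without Ngn3 were at 0 to 3.43 CPM. Only 1 of these 6 samples lay above that range. With Ngn3-Pdx1 it was 108, 71.8 and 0.492 CPM in WT and 70.0, 81.8 and 13.0 CPM in 6SA. Cells with all 3 factors gave 643, 1099 and 122 CPM in WT and 649 and 206 CPM in 6SA. The 5 samples with all 3 factors were thus above the other 27, and the lowest of them was again a replicate 3.

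Levels of different genes were compared per kilobase of annotated exon. In the 5 samples with all 3 factors, the mean level per kilobase was highest for Tagln3 (439 CPM per kb, SD 318) and Tubb3 (272 CPM per kb, SD 132). Nefm (63.8, SD 25.9), Map1b (48.2, SD 20.9) and Stmn3 (42.0, SD 28.6) followed, then Nefl (16.3, SD 8.98), Ina (13.6, SD 5.90), Mapt (10.4, SD 7.33), Stmn2 (8.96, SD 6.18) and Dcx (0.439, SD 0.423), all as mean CPM per kb. Ranges over the 5 samples overlapped between every pair of neighbours in that order. In the 15 samples without Ngn3, Map1b stood first at 9.15 CPM per kb (SD 3.13), and its range did not overlap that of Ina, the next gene, at 1.36 CPM per kb (SD 0.949).

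**Figure D2:**
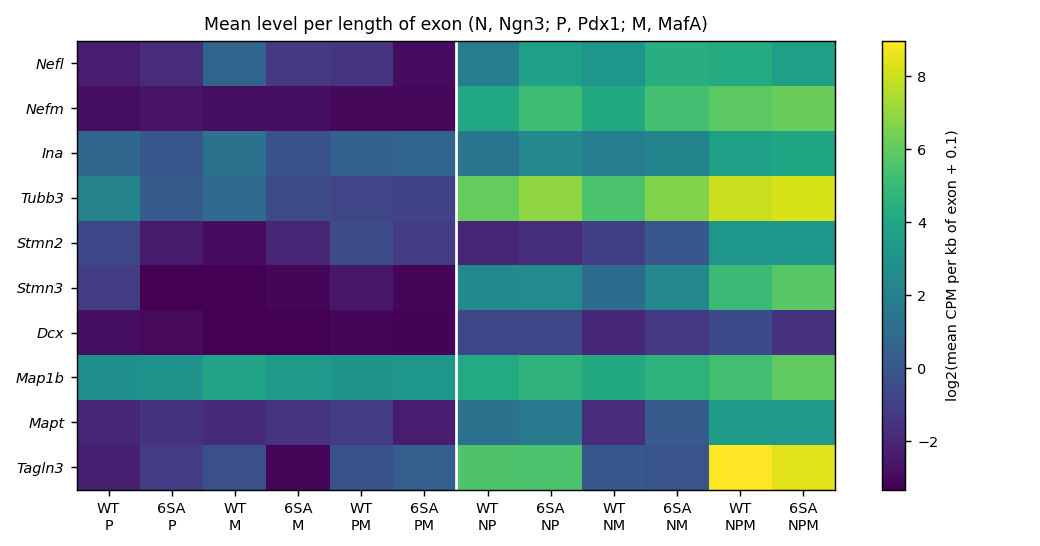
Mean CPM per kilobase of exon on a log2 scale (0.1 added) for the 10 genes in the 12 conditions, with cells without Ngn3 left of the white line. Tagln3 and Tubb3 are brightest with all 3 factors (439 and 272 CPM per kb over both cultures), and Map1b is the brightest gene without Ngn3 (9.15 CPM per kb).

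The companion factor was then considered by adding Ngn3 to each background, over WT and 6SA cultures together. With Pdx1, 4 of the 8 genes rose (Nefl, Tubb3, Stmn3 and Map1b), where 1.32% of all genes tested were higher. With MafA, 4 of 8 rose (Nefl, Tubb3, Stmn3 and Dcx), where 2.5% of all genes were higher. With Pdx1 and MafA all 8 rose, where 9.42% of all genes were higher. Nefl, Tubb3 and Stmn3 passed in every background. The log2 difference of Tubb3 was 5.29 (SE 1.07), 5.83 (SE 1.07) and 8.99 (SE 1.08), that of Stmn3 6.38 (SE 1.32), 7.25 (SE 1.48) and 9.63 (SE 1.20), and that of Nefl 5.83 (SE 1.23), 4.30 (SE 1.01) and 7.34 (SE 1.09) with Pdx1, MafA and both. Stmn3 rested on 1 count in the 5 MafA samples and 3 counts in the 6 Pdx1-MafA samples, against which its summed CPM was 228 times as high (95% exact interval 40.6 to 9019) and 1051 times as high (95% exact interval 359 to 5098), intervals that cover counting error only. Stmn2 gave -0.41 (SE 1.20) with Pdx1, 2.95 (SE 1.30) with MafA and 4.22 (SE 1.14) with both, and only the last passed (adjusted p = 0.0101, edgeR). Within WT or 6SA cultures alone, 6 of 8 genes passed with Pdx1 and MafA in each, with Dcx and Stmn2 missing, where 2.48% and 3.29% of all genes were higher. With 1 companion, the counts were 0 in each culture with Pdx1 and 0 in WT and 3 in 6SA with MafA by edgeR, where 0.108%, 0.367%, 0.308% and 1.17% of all genes were higher in the order WT with Pdx1, 6SA with Pdx1, WT with MafA and 6SA with MafA. In that order 5, 6, 3 and 6 genes had an unadjusted p below 0.05 and DESeq2 called 1, 4, 1 and 5.

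When replicate number was added as a block, 6 genes passed with Pdx1 (Dcx and Mapt in addition) and 6 with MafA (Stmn2 and Map1b in addition). The counts with a single companion rested on few samples without Ngn3. With Pdx1, 0 genes passed without 6SA replicate 1, without 6SA replicate 2 or without WT replicate 2 of the Pdx1 cells, and 1 without WT replicate 1. With MafA, 1 passed without WT replicate 1 of the MafA cells and 2 without WT replicate 2. Without all samples of replicate 2, 0 genes passed with Pdx1, 0 with MafA and 4 with both, and without replicate 1, 1 passed with Pdx1. Map1b with Pdx1 was also lost without replicate 1 of the 6SA or replicate 1 or 2 of the WT Ngn3-Pdx1 cells (adjusted p up to 0.150). For Dcx, the call with MafA was lost when any 1 of the 5 MafA samples or replicate 1 or 2 of the WT or 6SA Ngn3-MafA cells was left out (adjusted p up to 0.221), and the call with both companions when replicate 1 of the WT or 6SA cells with all 3 factors, or replicate 2 or 3 of their WT or 6SA counterparts without Ngn3, was left out (adjusted p up to 0.0604).

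**Figure D3:**
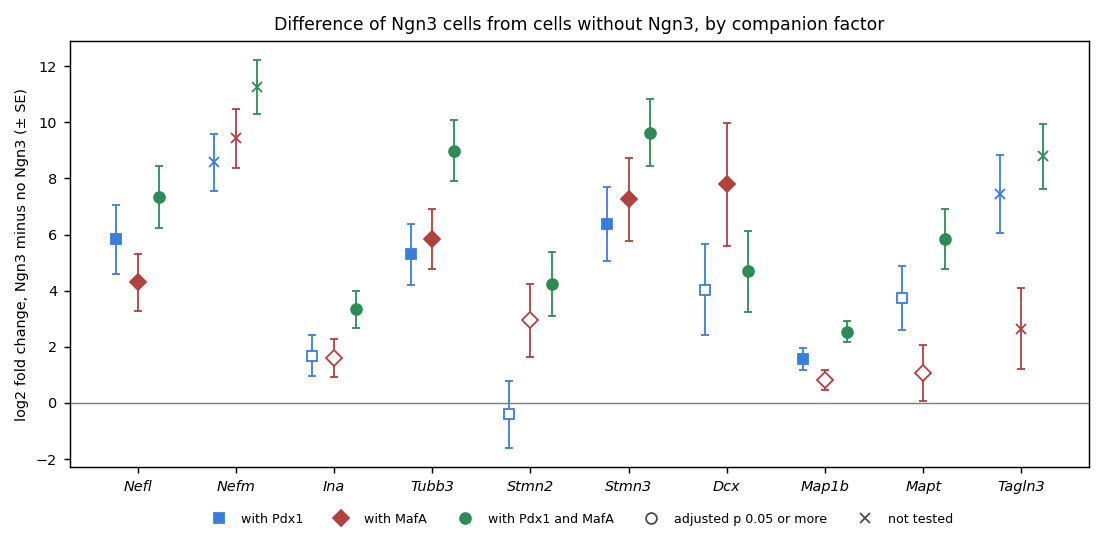
Log2 fold change of cells with Ngn3 against cells without it, with standard error, for each companion background. Filled symbols passed an adjusted p of 0.05, open symbols did not, and crosses mark Nefm and Tagln3, which were not tested here. All 8 tested genes are filled with Pdx1 and MafA.

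The difference between backgrounds was tested directly as an interaction. The interactions share samples with each other and are not independent. None of the 8 genes passed by edgeR when Ngn3 was compared between MafA and Pdx1 cells, between Pdx1-MafA and Pdx1 cells or between Pdx1-MafA and MafA cells, where 0%, 0.0792% and 0.05% of all genes passed. Stmn3 could not be estimated in these comparisons (SE 1632, 60.3 and 30.8), so its result there carries no information. Dcx had no count in the 5 samples with MafA alone, so its differences in the comparisons with that background rest on no count there. An unadjusted p below 0.05 was found for 0, 2 and 4 of the genes, and DESeq2 called 0, 0 and 2 (Map1b and Mapt). When replicate number was added as a block, Tubb3 passed in both comparisons with Pdx1-MafA cells, with a log2 difference of 3.51 (adjusted p = 0.00662, edgeR) and 2.96 (adjusted p = 0.0377, edgeR).

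Cells carrying Ngn3 were next compared with each other. Stmn2 was higher with all 3 factors than with Ngn3-Pdx1 (log2 difference 5.70, SE 1.24, adjusted p = 0.0123, edgeR), and it was the 1 gene of 8 to pass, where 0.525% of all genes were higher. Against Ngn3-MafA, Mapt (4.49, SE 1.00, adjusted p = 0.0150, edgeR) and Stmn3 (3.71, SE 0.86, adjusted p = 0.0205, edgeR) passed, where 1.17% of all genes were higher. Map1b and Stmn2 missed the threshold against Ngn3-MafA with an adjusted p of 0.0553 and 0.0554 (edgeR). Tagln3 was 3.16 (SE 0.89) above Ngn3-Pdx1 and 8.72 (SE 1.15) above Ngn3-MafA on the log2 scale, given as a description. Between Ngn3-Pdx1 and Ngn3-MafA cells 0 of 8 genes passed by edgeR, 1 (Mapt) had an unadjusted p below 0.05, and DESeq2 called 0, where 0.133% of all genes differed. The 3 comparisons share samples and are not independent.

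When replicate number was added as a block, 4 genes passed against Ngn3-Pdx1 (Stmn2, Stmn3, Tubb3 and Map1b) and 5 against Ngn3-MafA (Mapt, Stmn3, Stmn2, Tubb3 and Map1b). These counts also moved with single samples. Against Ngn3-Pdx1, 0 genes passed without 6SA replicate 1 of the cells with all 3 factors or without WT Ngn3-Pdx1 replicate 3, 2 passed without replicate 1 of the WT or of the 6SA Ngn3-Pdx1 cells, and 3 without WT replicate 3 of the cells with all 3 factors. Against Ngn3-MafA, 4 genes passed without that last sample, 0 without 6SA replicate 1 of the cells with all 3 factors, and 1 without WT replicate 1 of them or without replicate 2 or 3 of the WT or 6SA Ngn3-MafA cells.

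The form of Ngn3 was compared over the 3 combinations. None of the 10 genes differed between 6SA and WT cells by edgeR, with 0 at an unadjusted p below 0.05 and 0 called by DESeq2, and 0% of all genes passed. Differences (6SA minus WT, log2) ranged from -0.30 for Tagln3 (SE 0.72) to 0.90 for Mapt (SE 0.73), and 8 of 10 were above 0, against a median of 0.08 over all genes. Map1b had the smallest adjusted p (0.859, edgeR; log2 difference 0.56, SE 0.29). Whether the effect of Ngn3 differed between the 2 kinds of culture could not be estimated for Stmn3 (SE 5546) and Dcx (SE 1212), which had conditions without a count. For the other 6 genes tested, 0 passed by edgeR, 0 had an unadjusted p below 0.05 and 0 were called by DESeq2, with standard errors of 0.42 to 1.38. The fitted differences of these 6 genes were all above 0 (6SA minus WT), but the genes share the same samples. Each contains the 6SA minus WT difference of cells without Ngn3. There 1 of 10 fitted values was above 0, those of Stmn3 and Dcx included.

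Among cells without Ngn3, 0 of 10 genes differed in each of 4 comparisons by edgeR and by DESeq2 (Pdx1-MafA against Pdx1, Pdx1-MafA against MafA, Pdx1 against MafA, and 6SA against WT cultures), where 0% of all genes passed. An unadjusted p below 0.05 was found for 1, 1, 2 and 0 of them. Stmn3 could not be estimated between Pdx1 and MafA cells (SE 3138), nor Stmn3 and Dcx between 6SA and WT cultures (SE 4271 and 1338). Nefm and Tagln3 were tested here as well, as in the comparison of 6SA with WT Ngn3 cells.

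Among cells with Ngn3, replicate 3 was low. In the 5 Ngn3 conditions with 3 replicates, replicate 3 held the lowest value in 5 of 5 for Nefm, Tubb3, Map1b and Mapt, in 4 of 5 for Ina, Stmn2, Stmn3, Dcx and Tagln3, and in 3 of 5 for Nefl. In these 5 conditions mean Tubb3 was 297 ± 226 CPM (SD, n = 10) in replicates 1 and 2 and 55.9 ± 54.4 CPM (SD, n = 5) in replicate 3, and mean Map1b was 486 ± 178 and 209 ± 83.2 CPM. Mean Mapt was 37.3 ± 46.3 and 3.28 ± 5.57 CPM. Replicate 3 was also the sample at passage 5, and Neurog3 was lowest there in 4 of 5 conditions, at 14.6 CPM in the WT sample with all 3 factors in which Stmn2 was low. The part of passage and of Neurog3 in these values was not tested.

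**Figure D4:**
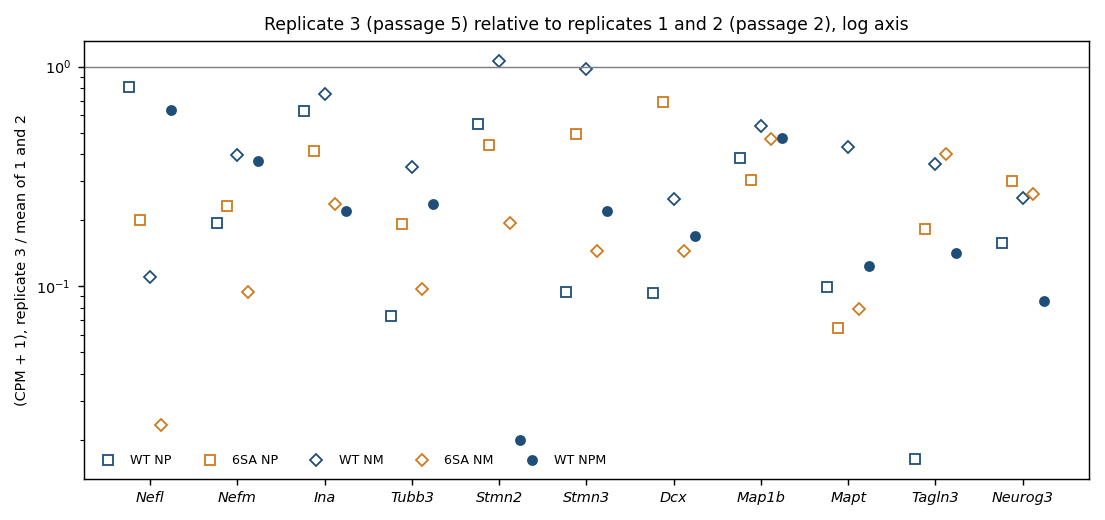
Replicate 3 (passage 5) divided by the mean of replicates 1 and 2 (passage 2), each as CPM + 1, on a log axis, for the 10 genes and Neurog3 in the 5 Ngn3 conditions with 3 replicates. The median ratio lies between 0.0996 (Mapt) and 0.469 (Map1b) for the 10 genes and is 0.251 for Neurog3.

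The genes were present in nearly all single pools of Ngn3 cells. Nefl, Nefm, Ina, Tubb3 and Map1b had more than 3 counts in all 29 Ngn3 libraries that were kept, Stmn3 and Mapt in 27, Stmn2 in 26, Tagln3 in 24 and Dcx in 22. Among the 29 libraries without Ngn3 the same was seen in 29 for Map1b, 22 for Ina, 18 for Mapt, 15 for Tubb3 and 12 for Stmn2, and in 7 for Nefl, 6 for Tagln3, 4 for Dcx, 2 for Nefm and 1 for Stmn3. Where 2 or 3 pools of the same Ngn3 culture had been sequenced (8 cultures), the highest pool was a median of 1.32 times the lowest for Nefl, 1.43 times for Map1b, 1.52 times for Tubb3 and 1.72 times for Nefm. The median was 1.56 for Mapt, 1.76 for Ina, 2.09 for Tagln3, 2.11 for Stmn2 and 2.37 for Stmn3, whose highest ratio was 9.84. Pools differed most for Dcx, where 3 of the 8 cultures had a pool without a count.

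The other genes of the cytoskeleton did not move in 1 direction. Of 62 genes on 9 lists, 61 were tested. Over all backgrounds 20 rose and 12 fell, with a median log2 difference of 0.53, where 11.1% of all genes rose and 10.5% fell. The epithelial keratins fell, 3 of 4 passing the test and 0 rising. Krt19, a duct keratin, fell from 567 to 1524 CPM without Ngn3 to 5.27 to 401 CPM with it, without overlap (log2 difference -3.27, SE 0.38, adjusted p = 2.44e-07, edgeR), and Krt8 and Krt18 fell by 1.09 and 1.23 on the log2 scale. Of 5 other intermediate filament genes, Nefh, the heavy neurofilament subunit, rose (1.71, SE 0.55, adjusted p = 0.0228, edgeR), at 0 to 145 CPM with Ngn3 against 0 to 6.86 CPM without.

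Of 13 other tubulin genes tested, 1 rose and 5 fell, where 11.1% of all genes rose and 10.5% fell. Tubb4a rose (log2 difference 1.39), while Tubb5 fell from a mean of 1294 to 565 CPM, Tubb4b from 503 to 274 CPM and Tuba1b from 88.0 to 38.5 CPM. Stmn1, the stathmin of dividing cells, fell from 23.0 to 5.47 CPM (log2 difference -2.25, SE 0.33, adjusted p = 1.01e-05, edgeR). The 2 other transgelins fell as well, Tagln2 from a mean of 1582 to 540 CPM and Tagln from 12.5 to 2.78 CPM. Tubb3, Stmn2 and Stmn3 thus rose where abundant members of the same families fell.

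In the lists of microtubule-associated proteins, of doublecortin kinases and collapsin response mediators, and of axonal motors, more genes rose than fell. Of all genes, 11.1% rose and 10.5% fell, and the lists were not tested against each other. Of 12 microtubule-associated proteins 6 rose and 0 fell, among them Map2, a protein of dendrites (log2 difference 2.62, SE 0.43), Mapre3 (1.45, SE 0.25) and Map9 (1.66, SE 0.33). Of 8 doublecortin kinases and collapsin response mediators 5 rose and Dclk1 fell (-2.63, SE 0.31). Crmp1 rose most, from at most 1.84 CPM to a mean of 27.9 CPM (7.08, SE 0.75, adjusted p = 1.14e-07, edgeR), and Dpysl3 (1.99, SE 0.28) and Dpysl5 (4.68, SE 0.84) rose as well. Of 10 axonal motor genes 6 rose and 0 fell. Kif5c, a kinesin heavy chain, rose from 0.871 to 24.9 CPM to 28.9 to 250 CPM without overlap (3.55, SE 0.39, adjusted p = 9.07e-08, edgeR). Kif1b (1.15, SE 0.19) and Klc1 (1.05, SE 0.18) had the next lowest adjusted p, and Kif5a (5.05), Dync1i1 (2.95) and Kif1a (1.70) rose by more than these. Of 5 growth cone membrane proteins, Gprin1 rose (4.24, SE 0.57). Over all lists, the counts by background were 3 higher and 1 lower with Pdx1, 7 and 5 with MafA and 19 and 11 with both. Of all genes, 1.32%, 2.5% and 9.42% were higher and 0.171%, 2.17% and 8.4% lower in these backgrounds.

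**Figure D5:**
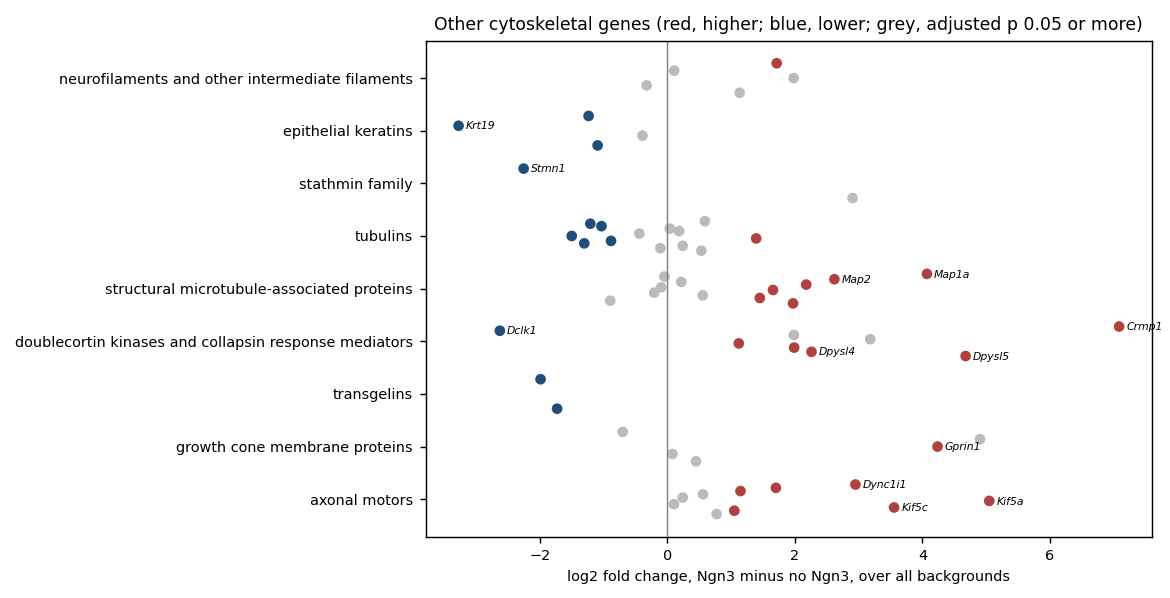
Log2 fold change of Ngn3 cells against cells without Ngn3, over all backgrounds, for the 61 tested genes of 9 further cytoskeletal lists (red, higher; blue, lower; grey, adjusted p of 0.05 or more). The keratins, Stmn1 and the other transgelins that passed lie left of 0, and Crmp1 lies farthest right at 7.08.

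Markers of other cells were read beside these genes. The summed level of 12 markers of mature neurons was 0.308 to 9.63 CPM without Ngn3 and 11.8 to 619 CPM with it, and 9 of the 10 tested markers rose, against 11.1% of all genes. Of these 12, 10 were found above 3 counts in some Ngn3 sample and 9 in some sample without Ngn3. The highest values with Ngn3 were 289 CPM for Snap25, 214 CPM for Gad1 and 123 CPM for Syp. The vesicular glutamate transporter gene Slc17a6 and the vesicular GABA transporter gene Slc32a1 had no count in any of the 32 samples. The summed level of 12 endocrine markers was 1.29 to 8.83 CPM without Ngn3 and 447 to 13460 CPM with it, and all 12 rose. Glia markers (24 to 191 CPM without and 33.1 to 209 CPM with Ngn3, nearly all Mbp, with Sox10 without a count) overlapped between the groups. So did immune (2.16 to 27.3 and 1.01 to 44.3 CPM), acinar (0 to 7.61 and 0.164 to 49.7 CPM) and endothelial markers (0 to 1.56 and 0 to 27.0 CPM). With all 3 factors the medians of glia, immune and acinar markers were 184, 33.4 and 23.4 CPM. They were 82.4, 17.1 and 1.84 CPM with Pdx1 and MafA, with overlapping ranges. Mesenchyme markers were 0.143 to 14.8 CPM without Ngn3 and 0.203 to 298 CPM with it, the highest being WT Ngn3-MafA replicate 1. Slc17a6 and Slc32a1 are used by excitatory and inhibitory neurons, and Slc17a7 and Gad1 of the same list rose with Ngn3 (highest 2.14 and 214 CPM). The part of other cells in the levels of the 10 genes was not tested.

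For each gene, the genes whose pattern over the 32 samples was most like it were sought among 13129 genes, by Pearson's r of log2(CPM + 1). These values describe samples that share the split by Ngn3 and their depth. Nefm was most like Pcsk2 (r = 0.993), a prohormone convertase, and Neurod1 (r = 0.991), a proneural factor. Tubb3 was most like Cplx2 (r = 0.976) and Gdap1l1 (r = 0.976), Stmn3 like Carmil3 (r = 0.965) and Elavl4 (r = 0.959), and Tagln3 like Agbl4 (r = 0.978), a carboxypeptidase of tubulin, and Gm2861 (r = 0.965). Nefl was most like Etv1 (r = 0.926) and Pax6 (r = 0.919), Map1b like Dop1b (r = 0.945) and Mcf2l (r = 0.944), and Mapt like Tmem63c (r = 0.944) and Ncoa1 (r = 0.930). Correlations were lower for Stmn2 with Mt3 (r = 0.898) and Arhgap36 (r = 0.869), Dcx with Gdf11 (r = 0.898) and Mrln (r = 0.892), and Ina with Tmem178b (r = 0.882) and Phf21b (r = 0.870). Within the 17 Ngn3 samples, Nefm and Tubb3 stayed close to each other (r = 0.970), whereas Tagln3 and Nefl did not (r = 0.348).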

How the data were processed

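Gene counts were deposited by the authors for each library: single-end reads of Smart-seq type libraries (Nextera XT) were aligned to mm10 with GSNAP and counted per Ensembl gene with HTSeq 0.5.3p3. The strand setting of the counting is not given in the sources used here. Rows that named no gene (no feature, 6.42 to 27.8% of reads; ambiguous, 3.44 to 14.2%; not aligned, 12.2 to 45.3%) and 92 spike-ins stayed out of library sizes.

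Here, libraries under 1000000 gene counts were left out (3 of 61), technical repeats were summed to 32 samples, and 45143 of 46078 genes were given a symbol. Libraries also needed over 10000 detected genes and under 25% spike-in counts, and the 24004 genes tested were those with a count in 5 or more kept libraries whose log2(CPM + 1) varied (variance above 0.001). One edgeR 4.0.16 quasi-likelihood model (R 4.3.3, TMM, trended dispersion) held the 12 conditions, and p-values were Benjamini-Hochberg adjusted over all genes tested, with a threshold of 0.05. CPM values are counts per 1000000 gene counts scaled by the TMM factors, or unscaled where a library is given on its own. DESeq2 1.42.0, other filters and scalings, a replicate block and the removal of each replicate were alternatives. In fits without 1 sample, the dispersion trend of the full fit was kept. Each standard error (SE) is the absolute log2 fold change divided by the square root of the F statistic of the test. It is therefore very large where F is very small. The fit was tested on simulated data. Tables and figures were made with Python 3.11.15, pandas 2.3.3, numpy 2.4.6 and matplotlib 3.10.9.

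The 10 genes and the lists were chosen with earlier results of these data known. Genes outside the 10 were named from the cytoskeletal lists by a rule: at most 3 per list and direction past the threshold, taken in order of adjusted p. Kif5a, Dync1i1 and Kif1a, the other axonal motors that rose, were named in addition. The 2 genes most correlated with each of the 10 were also named. Markers of other cells were named without this rule. The main model held condition only, so its p-values do not use a pairing of samples. For the replicate block, numbers were taken to pair samples, since number 3 marks passage 5. In both comparisons with 3 pairs, each pair's deviations from the group means also correlated above 0.1 (lowest r 0.127 and 0.234). Over all samples of different conditions, mean r was 0.379 for the same number and -0.194 for different numbers. With 2 pairs, all 3 factors in 6SA cultures gave a mean r of -0.392.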

Additional observations from a re-analysis of the deposited data

Results flagged for a closer look

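The 3 libraries left out for low gene counts all came from cells with all 3 factors. Values of genes with more than 3 counts in them are given as a description. Nefm and Tagln3 had been selected for their rise. In WT replicate 2 (1 of its repeats, 625650 gene counts) Nefm was at 781.6 CPM (not scaled), Map1b at 666.5, Tagln3 at 532.2, Tubb3 at 426.8, Mapt at 118.3, Stmn2 at 76.72, Nefl at 71.93, Ina at 70.33, Stmn3 at 41.56 and Dcx at 7.992 CPM. In 6SA replicate 2 (1 of its repeats, 241563 gene counts) Map1b was at 687.2 CPM, Nefm at 629.2, Tubb3 at 393.3, Tagln3 at 327.0, Mapt at 140.8, Ina at 53.82, Stmn3 at 49.68, Nefl at 33.12 and Stmn2 at 20.7 CPM. In 6SA replicate 3 (408733 gene counts), the 1 sample lost, Map1b was at 286.2 CPM, Tagln3 at 183.5, Nefm at 149.2, Tubb3 at 127.2, Nefl at 58.72, Mapt at 58.72 and Ina at 12.23 CPM. In that library Stmn3 had 2 counts, at 4.89 CPM. At these depths single counts weigh more than in the libraries kept.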

How the results depend on the processing

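Over all backgrounds, 7 or 8 of the 8 genes were called under every alternative tried, and no called difference changed its sign. Counts of called genes moved elsewhere. Ngn3 added to Pdx1 gave 4 genes, 2 with the first technical repeat only, and 0 to 5 when replicates were left out. Added to MafA it gave 4, and 0 to 4 without replicates, and added to both 8, and 4 to 8 without replicates. Between cells with all 3 factors and Ngn3-Pdx1, 1 gene was called, against 6 with no gene filter, 4 by DESeq2, 3 without the legacy setting, 2 with the first technical repeat only and 0 to 3 without replicates. Against Ngn3-MafA 2 were called, against 6 with no gene filter, 4 with RLE size factors, 4 with filterByExpr, 5 without the legacy setting, 5 by DESeq2 and 0 to 5 without replicates. The interactions gave 0, against 2 (Pdx1) and 4 (MafA) with no gene filter, 2 (MafA) by DESeq2, and 0 to 1 without replicates. With no gene filter, 1 gene was also called between Ngn3-Pdx1 and Ngn3-MafA, 1 for the Ngn3 effect between 6SA and WT, and 2, 1 and 1 among cells without Ngn3. The causes were not tested.

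With the replicate block, pairing samples by number, the count was 8 over all backgrounds, 6 with Pdx1, 6 with MafA, 8 with both, 4 and 5 for all 3 factors against Ngn3-Pdx1 and Ngn3-MafA, and 1 in each of the interactions of both companions. It was 0 in the other comparisons. The largest median log2 difference of all genes in a comparison was 0.0781 as reported, 0.165 with no gene filter, 0.171 with RLE size factors and 0.252 without WT Pdx1 replicate 1. Genes at a few counts, such as Dcx and Stmn3 without Ngn3, are limited by depth.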
